A study of Mus musculus with 2 samples.

Results

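The genes described here are 8 matrix metalloproteinases (Mmp2, Mmp3, Mmp8, Mmp9, Mmp12, Mmp13, Mmp14 and Mmp19) and 2 of their tissue inhibitors (Timp1 and Timp2), taken by symbol from the 28523 genes that the authors listed for all cells. All 10 symbols were found there, and 6 of them were also among the 21544 genes listed for neutrophils. Metalloproteinases are zinc-dependent enzymes that are made as inactive precursors and cut collagens, gelatin, elastin and other proteins of the extracellular matrix. Tissue inhibitors of metalloproteinases bind the active enzyme and block it. Neutrophils carry Mmp8 and Mmp9 protein ready-made in granules, whereas fibroblasts and macrophages are known to make most of the other members.

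The shZdhhc17 library came from liver metastases of ZDHHC17-silenced 4T1 cells (a triple-negative mammary tumour line of the mouse), and the shSCR library from metastases of 4T1 cells with a scrambled hairpin. Both hairpins were delivered by a lentiviral pLKO.1 vector with puromycin selection, and only the injected cells carried them, so neutrophils and other host cells were not themselves targeted. Female BALB/c mice of 6 to 8 weeks received 250000 cells into the spleen, which was then removed, and metastases were dissected on day 14. Equal cell numbers from 3 dissociations were pooled per group and captured in the microwells of a BD Rhapsody cartridge, so each group is 1 library without replicate mice. All intervals below cover counting error only.

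The 44371 cells had 172527305 UMIs (molecule counts) in shZdhhc17 and 214842365 in shSCR. Only 609 cell labels occurred in both libraries, among 21511 in shZdhhc17 and 22860 in shSCR. Of 8 genes chosen as neutrophil markers, 7 were in the authors' deposited table of neutrophil cluster markers, and none of 37 markers of other cell types was. The 7 include Mmp8 and Mmp9 themselves. Only 20 of the 37 were among the genes listed for neutrophils, of which 0.835% were cluster markers, so finding none is near that share. The cluster markers set neutrophil clusters against each other, so these counts do not test whether the cells were neutrophils. Levels of single genes per cell type or per library were not analysed here, and so no member is compared between the libraries.

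The 8 metalloproteinases share the site that holds their catalytic zinc ion, and the codons of this site are shown because they set the enzymes apart from their inhibitors. The pattern searched runs over 11 codons and has 3 histidine codons, which are printed in capitals. Sequences are from GENCODE transcripts on GRCm38, 5′ to 3′, on the coding strand, each inside 1 coding exon.

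Mmp2 (chr8:92839279-92839311, plus strand): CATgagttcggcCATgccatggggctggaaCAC
Mmp9 (chr2:164951133-164951165, plus strand): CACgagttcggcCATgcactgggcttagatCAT
Mmp8 (chr9:7563086-7563118, plus strand): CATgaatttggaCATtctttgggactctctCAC
Mmp13 (chr9:7276573-7276605, plus strand): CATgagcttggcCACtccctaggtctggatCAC
Mmp3 (chr9:7449775-7449807, plus strand): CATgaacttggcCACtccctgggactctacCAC
Mmp12 (chr9:7352914-7352946, plus strand): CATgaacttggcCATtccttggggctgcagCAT
Mmp14 (chr14:54437627-54437659, plus strand): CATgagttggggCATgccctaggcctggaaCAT
Mmp19 (chr10:128795673-128795705, plus strand): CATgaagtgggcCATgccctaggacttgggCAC

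All 8 member metalloproteinases held the pattern, as did all 23 genes of the family that were searched, and neither inhibitor did. Among 21901 protein-coding genes, 69 held it (0.315%). The 3 histidine codons were required by the search, so part of every match count below was fixed beforehand. Over the 33 bases, the collagenase gene Mmp8 and the gelatinase gene Mmp9 matched at 20 positions, whereas Mmp2 and Mmp14, which encodes an enzyme that activates the Mmp2 precursor, matched at 27. Mmp3 and Mmp13 also matched at 27. The gelatinase genes Mmp2 and Mmp9 matched at 25 and have this site in exon 8 of 13, later in the transcript than exon 5, where the other 6 have it.

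Of the members, 8 of 10 were among the 1000 most variable genes that the authors used to lay out all cells, where 3.51% of all listed genes were. These were Mmp2, Mmp3, Mmp8, Mmp9, Mmp12, Mmp13, Mmp19 and Timp1. Mmp14, which encodes a membrane-anchored enzyme, and Timp2, whose protein joins Mmp14 in activating the Mmp2 precursor, were listed but not among them. The genes were chosen with earlier results of these data known, so the count is a description. Of 15 further metalloproteinase genes, 14 were listed and none was variable in all cells. For so few genes, finding none is near the background of 3.51% and does not set them apart from the members. Timp3 was the only variable gene among the further inhibitors (Timp3, Timp4, Reck and A2m).

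The neutrophil table listed Mmp8, Mmp9, Mmp12, Mmp14, Mmp19 and Timp2. These are 6 of 10 members, where it listed 75.5% of the genes of the table for all cells. For so few genes this is near that share and is not a result about the members. Mmp8, the neutrophil collagenase gene, and Mmp19, whose enzyme cuts basement membrane proteins, were among the 1000 most variable genes of neutrophils, where 4.64% of the listed genes were. Mmp9, which encodes gelatinase B, was not among them, although it was a cluster marker. This was common, since 106 of the 180 cluster markers were not variable genes of neutrophils and 41.1% were.

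The 4 members outside the neutrophil table were Mmp2 (gelatinase A), Mmp3 (a stromelysin that also activates other metalloproteinases), Mmp13 (the main interstitial collagenase of rodents) and Timp1 (an inhibitor known to bind the Mmp9 precursor). All 4 were variable in all cells. Of the 8 variable members, 4 were thus in the neutrophil table, against 805 of the 1000 variable genes of all cells (80.5%). The file headers do not state what placed a gene in the neutrophil table, so a missing entry is not read as absence of the RNA. Of 10 genes of matrix proteins (collagens, Fn1, Eln and others), 8 were variable in all cells, where 3.51% of all listed genes were. The neutrophil table listed 5 of the 10, where it listed 75.5% of the genes of all cells. None was a neutrophil marker, where 0.835% of the genes listed for neutrophils were. For so few genes this is near the background and is not a result about the matrix genes.

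**Figure D1:**
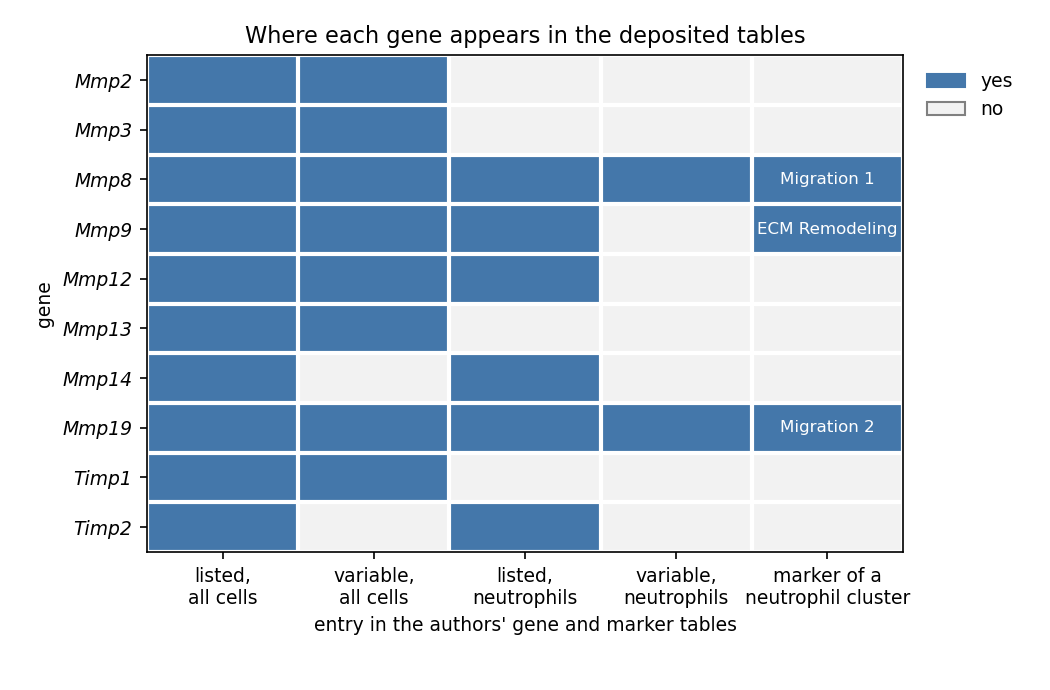
Entries of the 10 genes (rows) in the authors' gene tables for all cells and for neutrophils and in the table of neutrophil markers (columns); a filled field stands for an entry, with the cluster named in the last column. Mmp8 and Mmp19 fill every field, Mmp9 all but the flag for variable genes of neutrophils, and Mmp2, Mmp3, Mmp13 and Timp1 only the first 2.

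Of the members, 4 lie in a run of 10 metalloproteinase genes that spans 427 kb of chromosome 9. In genome order the run holds Mmp13, Mmp12, Mmp1b, Mmp3, Mmp1a, Mmp10, Mmp8, Mmp27, Mmp20 and Mmp7. Mmp8 (7558456 to 7568485, plus strand, GRCm38) was listed and variable in both tables. Mmp12 (7344381 to 7369499, plus strand), the macrophage elastase gene, was listed for neutrophils without being variable there. Mmp13 (7272514 to 7283331, plus strand) and Mmp3 (7445822 to 7455975, plus strand) were not in the neutrophil table. Mmp12 overlaps Mmp1b, which is on the minus strand (7368239 to 7388047), and whether the counting used strand is not given in the sources used here, so reads near their ends may have been split either way.

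**Figure D2:**
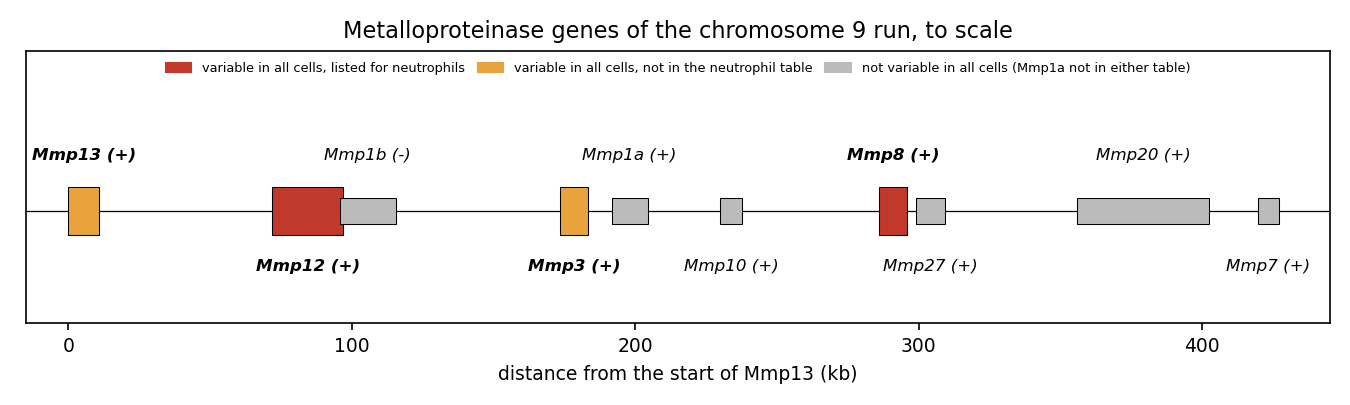
Metalloproteinase genes of the chromosome 9 run, to scale, by distance in kb from the start of Mmp13; tall boxes and bold names are the 4 genes described here, and the sign gives the strand. Mmp8 and Mmp12 were variable in all cells and listed for neutrophils, Mmp13 and Mmp3 were variable in all cells but not in the neutrophil table, and no other gene of the run was variable.

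The promoters of these members are shown as a description, and a link of promoter motifs to the neutrophil tables was not tested. RefSeq windows (GRCm38.p6) of 250 bases before to 50 after a start were found for 7 of the 10 members. Mmp2, Mmp9 and Mmp19 had no window, so their promoters were not searched. The windows were searched on both strands for TGAGTCA, the textbook binding motif of the AP-1 factor (TGACTCA on the other strand). TATAAA, the core of the TATA box, was searched in the same way. No match to one motif overlapped a match to the other. The 120 bases before the start follow, 5′ to 3′ on the plus strand, with matches in capitals.

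Mmp13 (chr9:7272394-7272513): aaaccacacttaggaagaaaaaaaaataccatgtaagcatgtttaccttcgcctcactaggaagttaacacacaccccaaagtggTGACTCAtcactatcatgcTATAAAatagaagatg
Mmp12, the second start of 2 (chr9:7347254-7347373): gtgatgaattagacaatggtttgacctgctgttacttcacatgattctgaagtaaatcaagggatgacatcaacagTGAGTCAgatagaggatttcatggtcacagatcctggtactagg
Mmp3 (chr9:7445702-7445821): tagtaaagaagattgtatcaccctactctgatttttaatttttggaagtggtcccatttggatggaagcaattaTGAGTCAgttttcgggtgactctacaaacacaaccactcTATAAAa
Mmp8 (chr9:7558309-7558428): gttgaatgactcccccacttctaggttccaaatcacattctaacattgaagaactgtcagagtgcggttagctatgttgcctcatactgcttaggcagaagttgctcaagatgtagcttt

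Mmp13, Mmp12 and Mmp3 each held 1 match to TGAGTCA, beginning 35, 44 and 46 bases before the start, in the order of the lines above. Mmp8 held none, and neither did the window of the first Mmp12 start, Mmp14, Timp1 or Timp2. On chromosome 9, 7 of the 10 genes of the run held the motif, and none of 8 metalloproteinase genes elsewhere with a window did. Of the genes of the run with the motif, Mmp12, Mmp1b and Mmp10 were listed for neutrophils. Mmp13, Mmp3, Mmp7 and Mmp1a, also with it, were not, and Mmp1a was not listed for all cells either. Mmp8, Mmp27 and Mmp20, without it, were listed for neutrophils. Of all 32851 windows, 5.20% held TGAGTCA, 13.6% held TATAAA and 0.941% held both. Mmp8 had a match to TATAAA on the minus strand whose leftmost base lies 3 bases before its start, and the second Mmp12 start had TATAAA just after it. These are matches of letters in a window and say nothing of which factor binds there.

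The authors named 9 neutrophil clusters and listed 20 markers for each, and 3 of the 10 members were on these lists, where 0.835% of the genes in the neutrophil table were. Mmp9 was a marker of the ECM Remodeling cluster, Mmp8 of Migration 1 and Mmp19 of Migration 2. Each member was listed for 1 cluster only, which held for every one of the 180 markers. The clusters were defined and named on these same cells, so the following values from the authors' deposited table describe the clusters and test nothing. Both libraries are pooled in them, and each sets a cluster against all other neutrophils.

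Mmp9 had a log2 fold change of 1.40 in the authors' deposited table and was above 0 in 99.3% of the 846 ECM Remodeling cells, against 53.0% of the other 10076 neutrophils. It ranked 11 of 20 in that cluster by the authors' marker score. Nearly every cell of the cluster thus had the gene detected, but so had most of the rest. Weighted by the cell numbers, the same table puts Mmp9 at 56.6% of all neutrophils, and 13.6% of these cells were in the ECM Remodeling cluster, which held 7.75% of neutrophils. ECM Remodeling cells had a median of 4667.5 UMIs, against 1797 in all other neutrophils (ratio 2.60), and the part of this depth difference in the detection of Mmp9 was not tested.

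Mmp8 had a log2 fold change of 1.50 in Migration 1 and was above 0 in 95.1% of its 1087 cells, against 51.1% of the other 9835 neutrophils, in the authors' deposited table. It ranked 3 by marker score and by fold change, behind Retnlg (a secreted protein gene of mature neutrophils) and Wfdc17. The depth of the cells was closer here, with medians of 2176 UMIs in Migration 1 and 1948 in the others. Weighted by cell numbers, Mmp8 was found in 55.5% of all neutrophils, and 17.1% of these cells were in Migration 1, which held 9.95% of neutrophils.

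Mmp19 had a log2 fold change of 1.39 in Migration 2, but it was above 0 in only 39.4% of its 1305 cells, against 14.4% of the other 9617 neutrophils, in the authors' deposited table. Its fold change ranked 3 among the 20 markers of that cluster, while its percent of cells was the lowest of them, against a median of 76.4%. Its rank by marker score was 11. Migration 2 cells had fewer UMIs, with a median of 1854 against 2095 in the others, and the part of this difference in the detection of Mmp19 was not tested. Over all neutrophils Mmp19 came to 17.4%, of which 27.0% were in Migration 2, a cluster of 11.9% of neutrophils.

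For all 3 genes most of the positive neutrophils lay outside the cluster that lists the gene, from 73.0% for Mmp19 to 86.4% for Mmp9. Free RNA in the suspension can also give UMIs in cells that do not express a gene. The authors corrected the counts for it, per the file headers, and the share of positive cells in a cell type that should lack these genes was not analysed here.

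**Figure D3:**
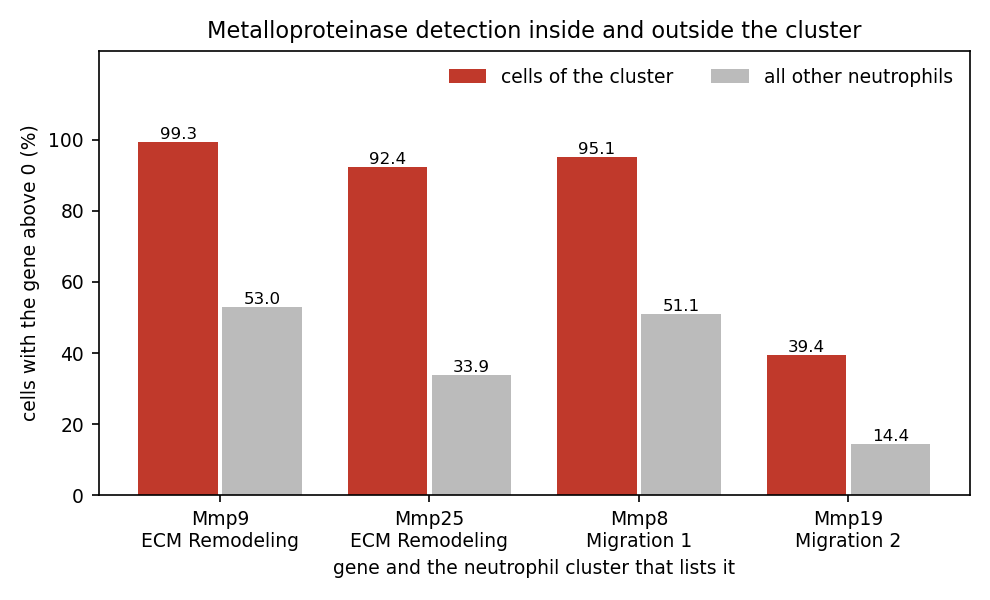
Percent of cells with the gene above 0 in the cluster that lists it (left bar of each pair) and in all other neutrophils (right bar), from the authors' deposited table, both libraries pooled, without error bars since each value is the authors'. Mmp9 and Mmp8 were above 0 in over 50% of the cells outside their clusters, and Mmp19 in 14.4%.

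The ECM Remodeling cluster held a second metalloproteinase, Mmp25, which encodes a leukocyte enzyme anchored in the cell membrane and is not one of the 10 members. In the authors' deposited table it had a log2 fold change of 1.50 and was found in 92.4% of ECM Remodeling cells and 33.9% of other neutrophils. It ranked 10, just before Mmp9, and Mmp9 was the more widely detected of the pair outside the cluster. The zinc site codons of Mmp9 and Mmp25 matched at 23 of 33 bases. Of the 15 metalloproteinase genes that are no members, 10 were in the neutrophil table. Mmp25 was the only one on a marker list, where 0.835% of the genes in the neutrophil table were.

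The genes listed beside the members were compared by fold change, since the marker table gives a gene in a single cluster. In the authors' deposited table the nearest to Mmp9 were Pira2 (log2 fold change 1.40), S100a8 (1.46) and Ceacam10 (1.47). S100a8, which encodes a calcium-binding protein abundant in neutrophils, was found in 100% of ECM Remodeling cells and 84.6% of the others. Ceacam10 was found in 73.4% of ECM Remodeling cells and 22.6% of the others. The gap in detection of Mmp9, 46.3 percentage points, was thus wider than those of S100a8 (15.4) and Pira2 (41.3) and narrower than those of Ceacam10 (50.9) and of Mmp25 (58.6). The nearest to Mmp8 were Prok2 (1.27), Ifitm1 (1.24) and Wfdc17 (1.79), and those nearest to Mmp19 were Saa3 (1.54), Stfa2l1 (1.54) and Ucp2 (1.20). Saa3, an acute phase gene, was found in 77.6% of Migration 2 cells and 33.5% of the others. Stfa2l1 and Pira2 belong to families of close copies, so how their reads were split is uncertain. This likeness rests on 1 value per gene.

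**Figure D4:**
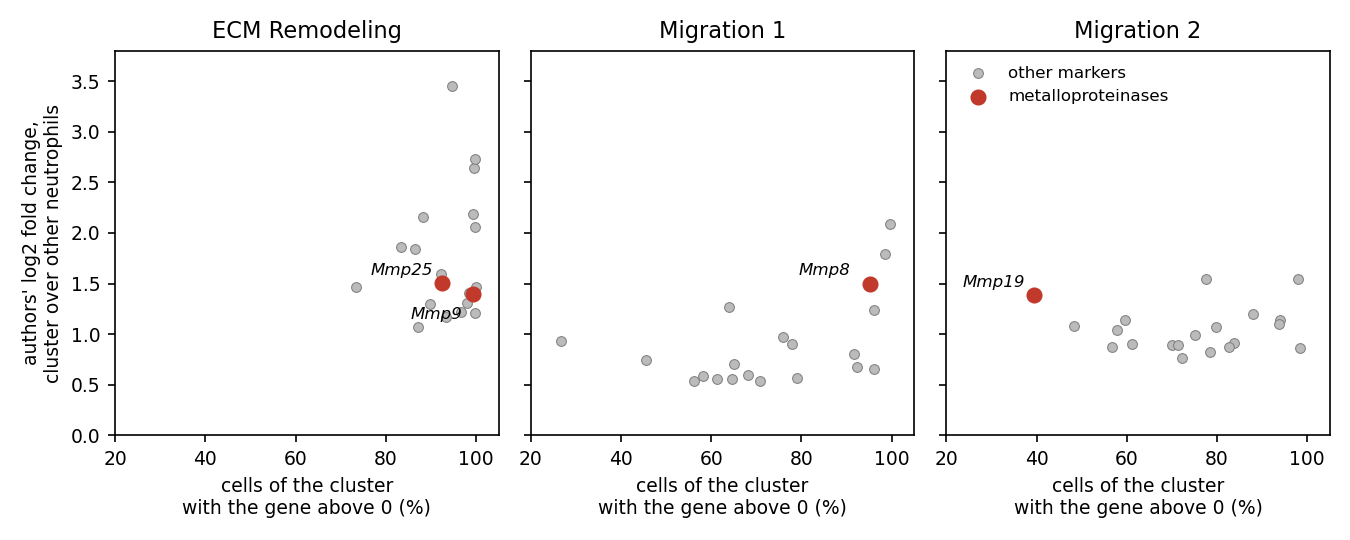
The authors' log2 fold change (cluster over all other neutrophils) against the percent of cells of the cluster with the gene above 0, for the 20 markers of each of 3 clusters; metalloproteinases are the large red points. Mmp9 and Mmp25 lie within the range of the other ECM Remodeling markers, Mmp8 ranks 3 from the top in Migration 1, and Mmp19 is farthest to the left in Migration 2.

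Among the listed genes with which these enzymes are stored or activated, the granule genes were spread over several clusters. Of 11 gelatinase and specific granule genes, Mmp8 and Mmp9 included, 8 were cluster markers, where 0.835% of the genes in the neutrophil table were. This list was chosen with earlier results of these data known, so the count is a description. In the authors' deposited table Ltf (log2 fold change 3.00), Camp (2.58), Ngp (2.57) and Lcn2 (1.75), genes of specific granule proteins, were markers of NETosis 1, and Cd177 (1.64) of NETosis 2. Lcn2 protein is known to bind Mmp9 and protect it from degradation. It was found in 100% of NETosis 1 cells and in 72.7% of other neutrophils. None of these 5 granule genes was listed for a cluster that lists a member. The other markers on this list, Mmp8, Mmp9 and Mmp25, all were, with Mmp25 a marker of ECM Remodeling beside Mmp9. The 5 are thus what remains once these are set aside. Each of the 3 clusters that list a member held 20 of the 180 markers. Over all 8 granule markers the part in these clusters is near that background and is not a result about granule genes. NETosis 1 cells had a median of 8252 UMIs and NETosis 2 cells 7842, more than the 3 clusters that list a member.

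Of 15 other matrix proteases, the serine protease genes Ctsg (4.72), Elane (4.47) and Prtn3 (3.95) were markers, all of Early-Stage 1, with log2 fold changes above those of any member in the authors' deposited table. All 15 were in the neutrophil table, which listed 75.5% of the genes of all cells. Of 6 activators and cofactors, 5 were in the neutrophil table and 2 were markers, Lcn2 and Bsg. Bsg, which encodes the metalloproteinase inducer basigin, was a marker of Hypoxia/Angiogenesis (2.13), found in 53.1% of its cells and 31.8% of the others. Of 6 inhibitor genes, Timp2 and Reck were in the neutrophil table. None was a marker of any cluster, which for so few genes is near the background of 0.835% and is not a result about the inhibitors.

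Between the libraries, only the numbers of cells in the 3 clusters that list a member were compared. Most neutrophils positive for each gene lay outside its cluster, so these numbers do not give the change in positive cells. Together the 3 clusters held 1262 of 4328 shZdhhc17 neutrophils, 29.2% (95% exact interval 27.8 to 30.5), and 1976 of 6594 shSCR neutrophils, 30.0% (28.9 to 31.1). The ratio was 0.973 (0.917 to 1.03), and the intervals overlapped. The make-up within the 3 clusters was not the same. Migration 1, which lists Mmp8, made up 24.8% (22.4 to 27.3) of these cells in shZdhhc17 and 39.2% (37.0 to 41.4) in shSCR. Migration 2, which lists Mmp19, made up 47.6% (44.8 to 50.4) in shZdhhc17 and 35.6% (33.5 to 37.8) in shSCR. ECM Remodeling, which lists Mmp9, made up 27.6% (25.1 to 30.1) in shZdhhc17 and 25.2% (23.3 to 27.2) in shSCR, with overlapping intervals.

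As shares of all neutrophils, the ratios of shZdhhc17 to shSCR were 0.616 (0.543 to 0.699) for Migration 1, 1.30 (1.17 to 1.44) for Migration 2 and 1.06 (0.934 to 1.21) for ECM Remodeling. Neutrophils were 20.1% (19.6 to 20.7) of all cells in shZdhhc17 and 28.8% (28.3 to 29.4) in shSCR, a ratio of 0.698 (0.675 to 0.721). A share of all cells therefore also carries this difference. With all cells of the library as the base, the 3 clusters together came to 5.87% (5.56 to 6.19) in shZdhhc17 and 8.64% (8.28 to 9.02) in shSCR, a ratio of 0.679 (0.634 to 0.727). Migration 2 was then at 2.79% (2.58 to 3.02) in shZdhhc17 and 3.08% (2.86 to 3.31) in shSCR, so its direction turned with the base. Each group is 1 pooled library, so none of these differences was set against the spread between mice.

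**Figure D5:**
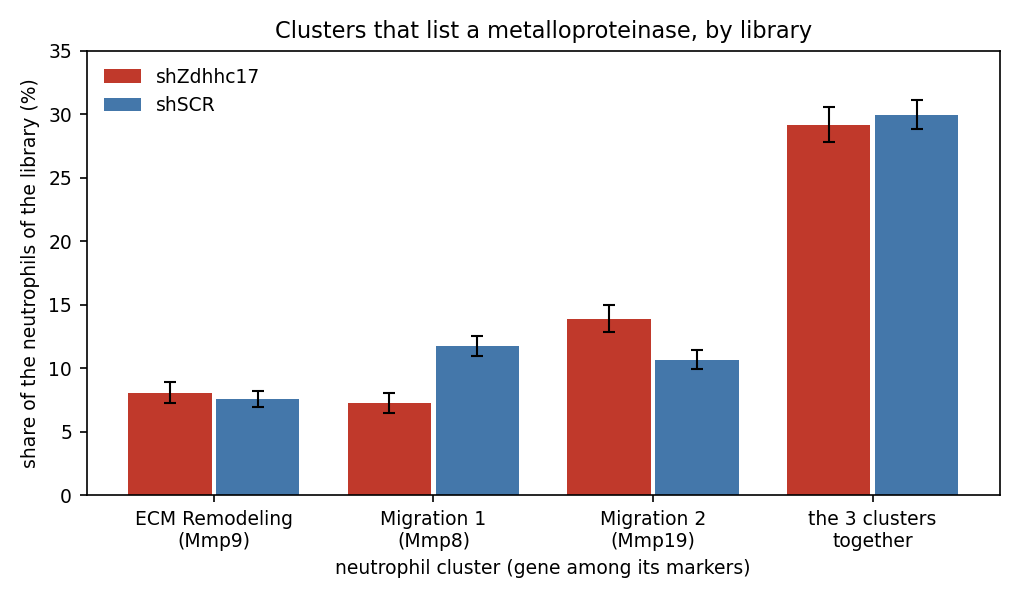
Share of the neutrophils of each library in the 3 clusters that list a member and in these together, with shZdhhc17 in red on the left of each pair and shSCR in blue; bars are percent and whiskers are exact 95% intervals for counting error. The whiskers are apart for Migration 1 and Migration 2, in opposite directions, and overlap for ECM Remodeling and for the 3 together.

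Depth differed between the libraries in each of these clusters. The median ECM Remodeling cell had 3963 UMIs in shZdhhc17, against 5370.5 in shSCR. Migration 1 cells had 1473 in shZdhhc17 and 2484.5 in shSCR, and Migration 2 cells had 1494 in shZdhhc17 and 2192.5 in shSCR. When shSCR neutrophils were weighted to the UMI distribution of shZdhhc17 neutrophils, the ratio was 0.689 (0.602 to 0.789) for Migration 1, 1.50 (1.33 to 1.68) for Migration 2 and 1.37 (1.18 to 1.59) for ECM Remodeling, whose intervals were then apart. The ratio of the 3 clusters together was then 1.14 (1.06 to 1.22), also with separate intervals and on the other side of 1 from the unweighted value. The part of depth in the assignment of cells to clusters was not tested.

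Fibroblasts, which are known to make members that are not in the neutrophil table, were present in both libraries. There were 545 fibroblasts in shZdhhc17 and 510 in shSCR. The median UMI count per fibroblast was 10393 for shZdhhc17 and 12725.5 for shSCR. Non-Kupffer macrophages, a known source of Mmp12, which the neutrophil table does list, numbered 2934 in shZdhhc17 and 3127 in shSCR. The files analysed here do not tie any member to these cells.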

How the data were processed

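Per the file headers, the authors processed reads with the BD Rhapsody pipeline (version not given in the sources used here), corrected counts for free RNA, clustered and annotated the cells, and used GRCm38 symbols. The submitters' processing notes name Seurat 4.1.0. The cell tables hold deposited counts (UMIs and detected genes per cell) and the deposited percent of mitochondrial UMIs. The marker table holds the authors' log2 fold changes (depth-scaled values, pseudocount 1), the deposited fraction of cells above 0 inside and outside the cluster, printed here as percent, and the authors' marker score and specificity score. No p-value came with it.

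Members and lists were chosen with earlier results of these data known. Text names all members, list genes among the markers, and for each member among the markers the 3 nearest in fold change. Shares have exact (Clopper-Pearson) 95% intervals and ratios log-normal ones. A count of 0 would allow 0.0693% of shZdhhc17 and 0.0455% of shSCR neutrophils (3 cells). Doublets and unknown cells stayed in the base of all cells, and no doublet caller was run. No test between groups was possible with 1 library each. Coding sites were taken from the longest coding transcript per gene of GENCODE M21 (GRCm38), and promoters from RefSeq (GRCm38.p6). Python 3.11.15, pandas 2.3.3 and scipy 1.17.1 were used.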

Additional observations from a re-analysis of the deposited data

Results flagged for a closer look

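As shares of neutrophils, the cluster that lists Mmp8 was lower in shZdhhc17 than in shSCR and the cluster that lists Mmp19 was higher. With all cells as the base both were below 1 (ratios 0.430 for Migration 1 and 0.907 for Migration 2, the intervals of Migration 2 overlapping). There were 0.521 Migration 1 cells per Migration 2 cell in shZdhhc17 and 1.10 in shSCR, a ratio of 0.474 (95% counting interval 0.399 to 0.562). It was picked out because the share of neutrophils was lower in shZdhhc17 for one cluster and higher for the other. Such shifts were not particular to clusters that list a member. Shares of neutrophils also had separate intervals for NETosis 1 (ratio 0.431), Hypoxia/Angiogenesis (0.744), NETosis 2 (1.34) and Inflammation (1.58). They overlapped for Early-Stage 1 (1.03) and Early-Stage 2 (0.999). The difference between mice was not tested, since each group is 1 library.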

How the results depend on the processing

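No paired analysis was possible because each group is 1 pooled library. Ratios are shZdhhc17 over shSCR, and 3 of the 4 results on clusters (all but Migration 1) changed their call or direction under some alternative. With all cells as the base, the ratios were 0.743 for ECM Remodeling, 0.430 for Migration 1, 0.907 for Migration 2 (the opposite direction, with overlapping intervals) and 0.679 for the 3 clusters together. In neutrophils of at least 1093 UMIs (the lower quartile), they were 1.39 for ECM Remodeling, 1.45 for Migration 2 and 1.12 together. With mitochondrial percent at or below the median (1.33%), they were 1.63 for ECM Remodeling, 0.755 for Migration 1, 1.44 for Migration 2 and 1.17 together. Matching on UMIs gave 1.37 for ECM Remodeling, 1.50 for Migration 2 and 1.14 together. The ratios with all cells as the base also carry the lower share of neutrophils in shZdhhc17 (ratio 0.698). The cause of the other changes was not tested. Migration 1 stayed below 1 with separate intervals in all 6 alternatives (0.430 to 0.755). Members among variable genes numbered 8 in all cells and 2 in neutrophils. Members among the markers numbered 3 with a log2 fold change of at least 1, 2 (Mmp8 and Mmp19) among the 10 highest fold changes per cluster, and 2 (Mmp8 and Mmp9) among markers in at least 50% of cells. Leaving out doublets and unknown cells, chosen after the data were seen, changed no call among 6 cell types.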
